A study of Mus musculus with 8 samples.

Results

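The chaperone and heat shock genes were followed in total RNA of mouse nucleus accumbens (NAc) and medial prefrontal cortex (mPFC). They were chosen by symbol: the Hspa, Hspb, Hspd, Hspe, Hsph and Hsp90 heat shock proteins, the Dnaja, Dnajb and Dnajc J-domain proteins, the Bag co-chaperones, the Cct chaperonin subunits and the heat shock factors Hsf1 to Hsf4. Of 33885 symbols in each count table, 88 matched, and 83 of them had at least 50 counts summed over the 8 libraries. The 5 symbols left out were Dnajb3 and Dnajb7, with 0 counts each, Dnajc22 with 16, Hspb2 with 20 and Dnajc25 with 23, and the lowest gene kept was Hsf3 with 201. All 83 genes passed edgeR's filter on low counts in every comparison.

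The mice were adult C57Bl6J males, an inbred strain, with no genetic change named in the labels. The titles of all mPFC libraries carry the letters WT (wild type), which the titles of the NAc libraries do not. NAc was taken 15 minutes after a place-preference procedure in which cocaine was injected at 7.5 mg/kg into the peritoneum (n = 2), and from untreated mice that stayed in the home cage (n = 2). mPFC was taken 15 minutes after social defeat by an aggressive CD1 male (n = 2), and from mice that stayed in the home cage (n = 2). The controls had neither an injection nor an unfamiliar cage, and the sources used here do not tell whether each library is its own animal, so every p-value reflects the spread of these libraries alone, which may be technical.

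Molecular chaperones bind unfolded protein and help it fold, and many of their genes are switched on by heat shock factor 1 (Hsf1) when unfolded protein builds up in the cytosol. Hsp70 proteins such as Hspa8 hold a client in a cycle of ATP hydrolysis that J-domain proteins start and Bag proteins end, Hsp90 completes the folding of kinases and steroid receptors, and the TRiC chaperonin folds actin and tubulin in a closed chamber. In neurons, Hspa8 together with the J-domain protein Dnajc6 (auxilin) also strips clathrin from synaptic vesicles, and Dnajc5 (cysteine string protein) protects synaptic vesicle proteins.

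The promoter sequences of the family show which members carry the letters read by its best known regulators. RefSeq windows of the 250 bases before the gene start (GRCm38.p6) were found for 68 of the 83 members. Motifs were searched on both strands. A heat shock element of 3 units (GAA, any 2 bases, TTC, any 2 bases, GAA, or its reverse complement) was present in 3 of these 68 (4.41%), Dnajb6, Hspd1 and Hspe1, of which Hspd1 and Hspe1 share the same site between them, and in 0.514% of the windows of 27025 genes. Any 2 neighbouring units (GAA and then TTC, or TTC and then GAA, with 2 bases between), which also lie inside the longer motif, were in 16 of 68 (23.5%) and in 14.5% of all windows. An ER stress element (CCAAT, any 9 bases, CCACG) was in Dnajc3, Hsp90b1 and Hspa5, again 3 of 68 (4.41%), against 0.13% of all windows. A match is a description of letters and not a bound site. The matches in Hspd1, a mitochondrial chaperonin (chr1:55088051-55088079, minus strand), and in Dnajb6, a J-domain protein that suppresses aggregation (chr5:29735844-29735872, plus strand), are shown because they hold the longer heat shock element, in capitals. These 2 stretches lie before the RefSeq start used for the window but inside an exon annotated in GENCODE M21, whose gene starts lie further upstream.
Hspd1: gccTTCCGGAAGGTTCTAGAAcggaccgt
Dnajb6: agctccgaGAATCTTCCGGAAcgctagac

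Hspa1a and Hspa1b, the stress-inducible Hsp70 pair, are shown because their windows differ at 3 of 250 bases (98.8% identity). The windows lie at chr17:34972157-34972406 and chr17:34959239-34959488, both on the minus strand, and capitals mark the heat shock element of 2 units.
Hspa1a: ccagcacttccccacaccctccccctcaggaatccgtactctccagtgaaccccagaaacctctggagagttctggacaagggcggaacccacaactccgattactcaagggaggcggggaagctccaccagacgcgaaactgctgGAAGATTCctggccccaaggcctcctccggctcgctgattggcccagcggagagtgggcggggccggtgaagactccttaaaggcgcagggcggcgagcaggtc
Hspa1b: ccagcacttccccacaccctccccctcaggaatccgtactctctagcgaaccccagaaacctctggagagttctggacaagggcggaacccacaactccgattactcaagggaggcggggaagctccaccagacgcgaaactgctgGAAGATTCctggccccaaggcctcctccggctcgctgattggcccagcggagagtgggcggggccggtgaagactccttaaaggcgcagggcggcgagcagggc

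The ER stress elements, in capitals, are shown for Hspa5 (BiP), the Hsp70 of the endoplasmic reticulum (chr2:34772020-34772048, plus strand), for Hsp90b1 (Grp94), the Hsp90 of the same compartment (chr10:86705510-86705694, minus strand), and for Dnajc3, a J-domain partner of Hspa5 (chr14:118937682-118937931, plus strand). The Hspa5 match also lies inside a GENCODE M21 exon. In Hsp90b1 the capitals fall at 2 places, the second on the opposite strand.
Hspa5: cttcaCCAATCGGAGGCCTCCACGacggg
Hsp90b1: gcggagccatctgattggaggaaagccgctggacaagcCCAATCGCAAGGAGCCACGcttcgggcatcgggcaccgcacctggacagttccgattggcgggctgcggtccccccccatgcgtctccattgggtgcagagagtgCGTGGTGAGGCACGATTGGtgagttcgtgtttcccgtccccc
Dnajc3: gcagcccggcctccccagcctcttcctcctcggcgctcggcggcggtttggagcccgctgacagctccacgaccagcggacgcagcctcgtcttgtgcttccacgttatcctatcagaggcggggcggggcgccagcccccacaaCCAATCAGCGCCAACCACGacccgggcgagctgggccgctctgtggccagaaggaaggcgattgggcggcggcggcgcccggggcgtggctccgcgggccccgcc

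Library totals ran from 111901829 to 179479978 counts. Region labels were checked with markers: summed markers of striatal projection neurons were at 2493 to 7309 CPM (counts of a library scaled to a common total with TMM factors) in the NAc home-cage libraries against 965 to 1079 in mPFC, and summed cortical glutamatergic markers were at 1187 to 2306 against 3889 to 4051. The cocaine libraries had striatal sums of 2851 and 6457, so both NAc groups held a library with a low and a library with a high striatal sum.

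Levels between genes were compared per kilobase of exon, since long genes collect more reads. The cytosolic Hsp90 gene Hsp90ab1 averaged 250 CPM per kilobase of exon over the 8 libraries, Hspa8 averaged 174, the second cytosolic Hsp90 gene Hsp90aa1 72.7, Dnajc6 66.4, Hsp90b1 39.9 and Bag6 38.3. Bag6 takes part in the delivery of tail-anchored membrane proteins. Per kilobase of whole gene, introns included, Hsp90ab1 (137) and Hspa8 (82.3) stayed first and second, while Dnajc6 moved from place 4 to place 28, at 2.68. Whether intron reads were counted is not given in the sources used here, so the place of Dnajc6 depends on the length used.

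**Figure D1:**
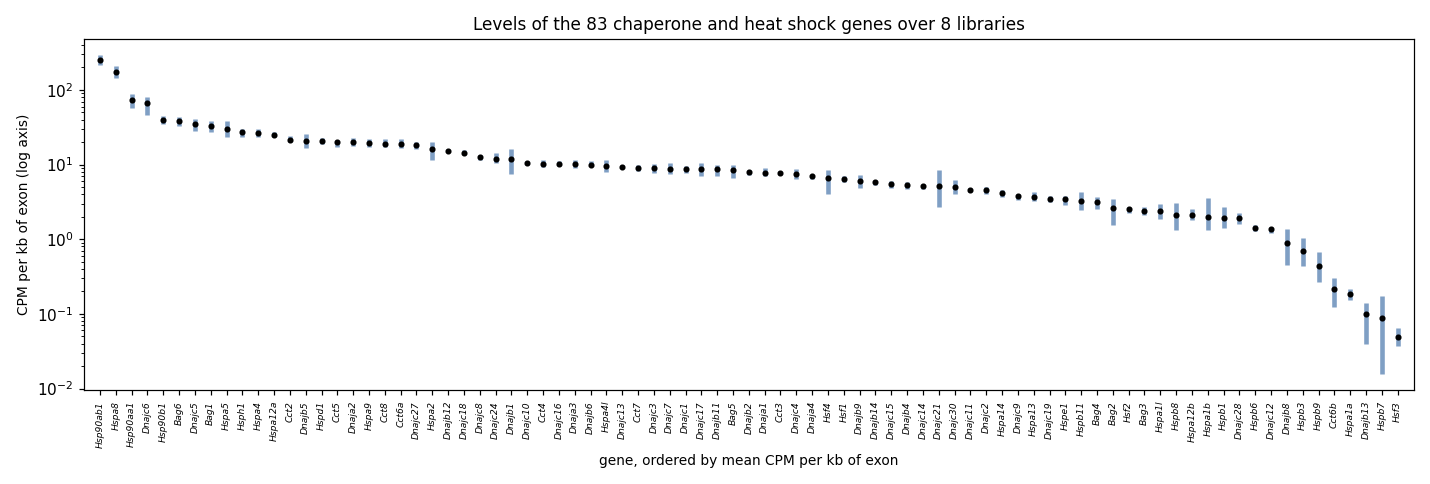
Mean level of each of the 83 genes over the 8 libraries in CPM per kilobase of exon, on a log axis, with genes ordered by that mean (points) and bars from the lowest to the highest library. Hsp90ab1 (250) and Hspa8 (174) stand at the left, and Hsf3 and Hspb7 at the right have the lowest means.

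At the low end, 7 members had a mean under 1 CPM. Hsf3, a heat shock factor that is a main one in chicken, averaged 0.18 CPM, and Hspb7, a small heat shock protein best known from heart, 0.247 CPM. Dnajb13, a protein of the ciliary axoneme, averaged 0.268, Hspb9, known from testis, 0.313, and Cct6b, a subunit of TRiC known from testis, 0.406 CPM.

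Most members varied little. Over the 76 members with at least 1 CPM, the median coefficient of variation across the 8 libraries, all groups together, was 9.31%, against 11.8% for the 14071 genes at that level. It was above 20% for 9 of the 76 and for 3594 of the 14071. The steadiest were the J-domain genes Dnajb12 (3.04%), Dnajc11 (3.33%) and Dnaja4 (3.80%), and the most variable of the 83 were Hspb7 (73.5%), Dnajc21 (49.95%) and Hspa1b (40.5%).

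The first comparison asked whether chaperone RNA differed in NAc 15 minutes after cocaine conditioning. Hspa8 was at 644 and 666 CPM in the cocaine libraries and at 627 and 674 in the home-cage libraries. Dnajb1, the Hsp40 partner of Hsp70, was at 26.5 and 30.6 CPM after cocaine and at 24 and 32.3 in home-cage mice. For both genes the home-cage values enclosed the cocaine values. No member passed edgeR's quasi-likelihood test at a Benjamini-Hochberg adjusted p under 0.05 (0 of 83; 0.0% of 18418 genes), and 0 of 83 had an unadjusted p under 0.05 (1.15% of genes); DESeq2 also called 0 of 83 (0.0167% of genes). The log2 fold change was 0.01 for Hspa8 (95% interval -0.29 to 0.33, edgeR, n = 2 a group) and 0.03 for Dnajb1 (-0.44 to 0.50, edgeR), so that for both a rise of more than 1.5-fold lay outside the interval. Of the 83 log2 fold changes 24 were above 0 (background 47.6%), with a median of -0.03 against -0.01 over all genes.

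The heat shock response genes showed no shared direction after cocaine. Of the 12 genes listed as Hsf1 targets, 4 were above 0 and 8 below, with a median of -0.01. Bag3, which links Hsp70 to autophagy, was at 6.70 and 6.22 CPM after cocaine and at 5.72 and 5.50 in home-cage mice, and its groups did not overlap (log2 fold change 0.21, SE 0.112, edgeR adjusted p = 1). Hspa1b was at 4.98 and 7.79 CPM after cocaine and at 4.21 and 9.95 in home-cage mice. The home-cage libraries held both the lowest and the highest Hspa1b value in NAc, and its interval, from -1.41 to 1.13 in log2 units, was wider than that of any other Hsf1 target. Hspa1a had 63 to 92 counts in the NAc libraries beside 694 to 1373 for Hspa1b. Reads that fit both genes cannot be placed, and how such reads were counted is not given in the sources used here, so both values are uncertain; their summed level was 5.43 and 8.38 CPM after cocaine and 4.73 and 10.6 in home-cage mice.

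Genes of the endoplasmic reticulum had negative log2 fold changes after cocaine in 10 of 10 cases, with a median of -0.07, and none passed. In 5 of the 10 both cocaine libraries lay below both home-cage libraries (background 13.2%; over all members 17 of 83 lower, and 4 higher against 11.2%). Dnajb11, a J-domain partner of Hspa5, had the smallest unadjusted p of the members, at 22.7 and 24 CPM after cocaine and 26.3 and 27.0 in home-cage mice (log2 fold change -0.18, SE 0.0802, edgeR unadjusted p = 0.0789, adjusted p = 1). Hspa5 was at 103 and 98.8 CPM after cocaine and at 109 and 124 in home-cage mice (-0.20, SE 0.105, edgeR adjusted p = 1). The mitochondrial chaperones were negative in 8 of 8 cases, with a median of -0.06. Oligodendrocyte markers had positive log2 fold changes in 12 of 12 cases in the same libraries, none called. Their sums were 2397 and 2706 CPM after cocaine and 1440 to 2544 in home-cage mice. Striatal projection neuron markers were negative in 11 of 14 cases (median -0.17), none called. Their sums were 2851 and 6457 CPM after cocaine and 2493 to 7309 in home-cage mice. Blood markers were positive in 4 of 4 tested (18.2 and 23.9 CPM against 16.1 to 18.9) and choroid plexus and ependymal markers negative in 4 of 5 (13.8 and 21.5 against 11.4 to 27.8), none called. The part of these markers in the chaperone values was not tested. In bulk tissue fewer cells of a type and less RNA per cell cannot be told apart.

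**Figure D2:**
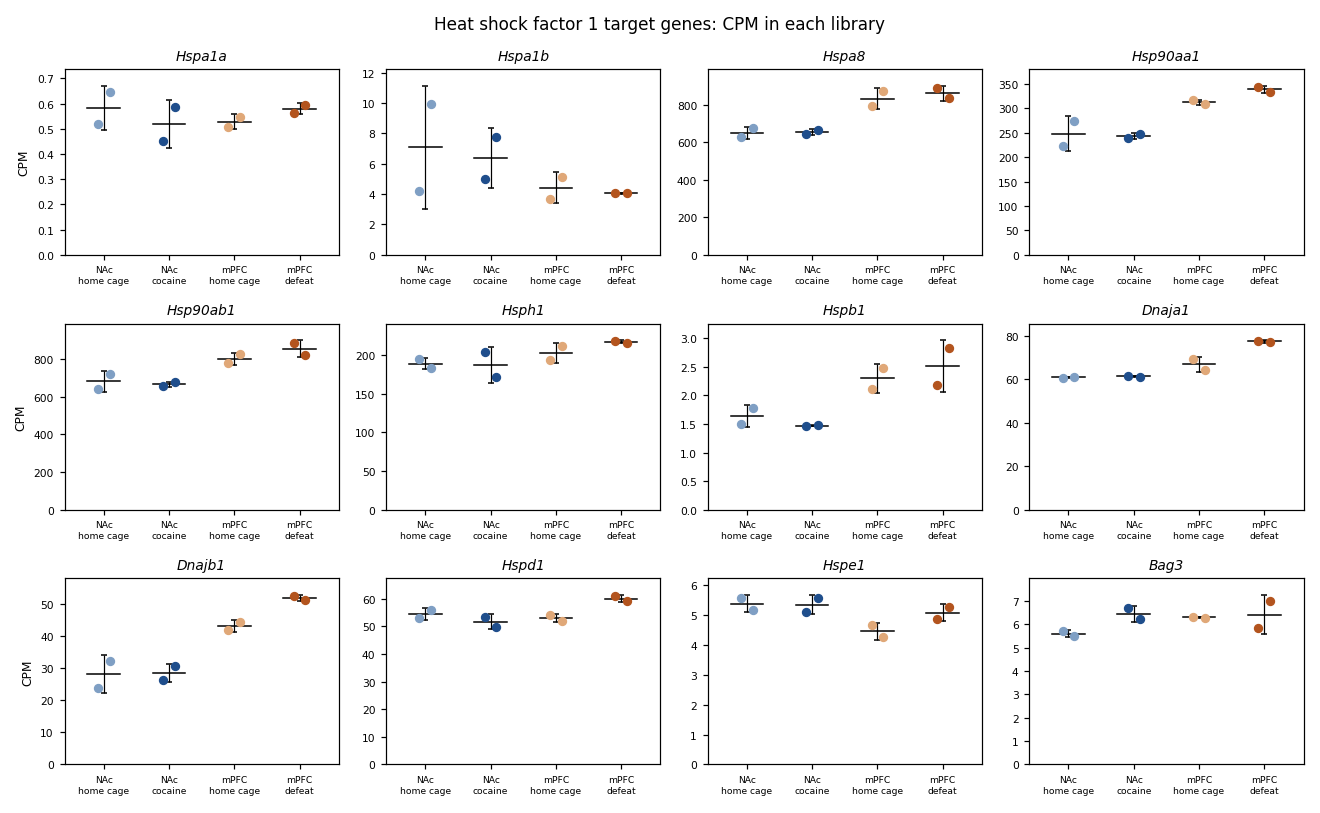
CPM of the 12 listed Hsf1 targets in each of the 8 libraries (points), with the group mean (line) and SD (bar, n = 2). Dnajb1 and Dnaja1 are higher in both social defeat libraries than in both mPFC home-cage libraries, and Hspa1b is spread widest within the NAc groups.

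The second comparison asked the same of mPFC 15 minutes after social defeat. More members lay above the home-cage level than below it, by small amounts, and none passed. Dnajb5, a cytosolic J-domain protein (chr4:42949814-42959425, plus strand, GRCm38), was at 145 and 154 CPM after defeat and at 117 and 128 in home-cage mice. Dnajb1 (chr8:83608193-83612653, plus strand) was at 52.5 and 51.2 CPM in the defeat libraries and at 41.9 and 44.5 in the home-cage ones. In both genes the groups did not overlap. Dnajb5 gave a log2 fold change of 0.28 (SE 0.0768, edgeR adjusted p = 0.0702) and Dnajb1 one of 0.26 (SE 0.0777, edgeR adjusted p = 0.146).

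By edgeR's quasi-likelihood test 0 of 83 members were called (0.704% of 18027 genes were), while 12 of 83 had an unadjusted p under 0.05 (7.14% of genes), 9 of them higher and 3 lower (background 3.79% higher and 3.36% lower). That count of 12 was 5 in a fit of all 8 libraries. It fell without either defeat library or without mPFC home-cage replicate 2, and rose without mPFC home-cage replicate 1. The share of all genes at that p was worked out for the main fit alone, so the counts of the other fits have no background. DESeq2 called Dnajb5 (adjusted p = 0.0352; 0.402% of genes called), and so did edgeR with no filter on low counts (adjusted p = 0.0429; 0.711% of genes called). Without mPFC home-cage replicate 2 (0.999% of genes called), edgeR called Dnajb5 (log2 fold change 0.35, adjusted p = 0.0137) and Dnajb1 (0.30, adjusted p = 0.0425); over all fits with 1 library left out the adjusted p ran from 0.0137 to 1 for Dnajb5. Of the 83 log2 fold changes 56 were above 0 (background 48.9%), with a median of 0.05 against -0.00 over all genes (0.034 without defeat replicate 1). Both defeat libraries lay above both home-cage libraries for 35 of 83 (background 18.3%) and below them for 4 (background 15.8%).

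Of the 12 listed Hsf1 targets, 11 had log2 fold changes above 0 in mPFC, with a median of 0.11, and 7 had both defeat libraries above both home-cage libraries (18.3% of all genes did). Dnaja1, another J-domain partner of Hsp70, was at 77.6 and 76.9 CPM after defeat and at 69.2 and 64.2 without it (log2 fold change 0.20, SE 0.0762, edgeR adjusted p = 0.379). Hspd1 was at 60.8 and 59.0 CPM after defeat and at 54.1 and 52.0 in home-cage mice (0.17, SE 0.0765, edgeR adjusted p = 0.626). Its mitochondrial co-chaperonin Hspe1, which lies head to head with it, was at 4.88 and 5.27 CPM against 4.66 and 4.25 (0.18, edgeR adjusted p = 0.871). For all 3 genes both defeat libraries were the higher ones. The exons of Hspd1 and Hspe1 overlap on opposite strands. Those of Dnaja1 share 608 bases with Smu1 and 249 with Gm6297, each on the opposite strand. Since the strand setting of the counting is not given in the sources used here, reads in these stretches cannot be told apart.

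The inducible Hsp70 genes gave small values of either sign. Hspa1b was at 4.04 and 4.08 CPM after defeat and at 3.70 and 5.14 in home-cage mice (log2 fold change -0.13, edgeR adjusted p = 0.966), with the defeat values inside the home-cage range. Hspa1a was at 0.564 and 0.595 CPM after defeat and at 0.508 and 0.549 in home-cage mice (0.13, 95% interval -0.35 to 0.60, edgeR adjusted p = 0.992). Exons of Hspa1a share 564 bases with Gm20481 on the opposite strand, where reads cannot be told apart either. Hsp90aa1, the inducible Hsp90, was at 344 and 333 CPM after defeat and at 316 and 309 in home-cage mice (0.11, edgeR adjusted p = 0.929). Hspa8 was at 889 and 833 CPM against 793 and 871, and these overlapped.

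Among the other groups, all 8 TRiC subunits in the list had log2 fold changes above 0 (median 0.07). So did 7 of 10 ER chaperones (median 0.05) and 5 of 8 mitochondrial chaperones (median 0.10). Both defeat libraries lay above both home-cage libraries for 5 of 8 TRiC subunits, 6 of 10 ER chaperones and 5 of 8 mitochondrial chaperones. They did so for 1 of 6 Bag genes, for 35 of all 83 members and for 18.3% of all genes. Hsf1 itself was at 40.9 and 42.4 CPM after defeat and at 42.2 and 45.0 in home-cage mice (-0.07, edgeR adjusted p = 0.978). Dnajc6 was at 478 and 462 CPM against 477 and 466 (-0.01, edgeR adjusted p = 0.997) and Dnajc5 at 288 and 269 against 279 and 268 (0.02, edgeR adjusted p = 0.994). For Dnajc5 and Dnajc6 the libraries overlapped. Downward, Hspb3, a small heat shock protein best known from muscle, was at 0.495 and 0.494 CPM after defeat and at 0.737 and 0.809 in home-cage mice (log2 fold change -0.65, SE 0.225, edgeR adjusted p = 0.286). Hspb11, a component of intraflagellar transport, was at 5.76 and 5.17 CPM against 6.59 and 6.24 (-0.24, SE 0.107, edgeR adjusted p = 0.602), and Dnajc17 at 9.09 and 9.29 against 10.7 and 10.4 (-0.21, edgeR adjusted p = 0.602).

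Of 43 other chaperone pathway genes listed, none was called in either treatment comparison, and after defeat 32 had log2 fold changes above 0. The smallest p after defeat was that of Ptges3, the Hsp90 co-chaperone p23 (0.21, edgeR adjusted p = 0.464). Markers of other cells were compared in the same mPFC libraries. Blood markers were called higher for 3 of 4 tested, with sums of 57.2 to 62.0 CPM after defeat and of 23.1 to 23.5 without it. Oligodendrocyte markers had negative log2 fold changes in 11 of 12 cases, none called (1201 to 1320 CPM after defeat, 1329 to 1603 in home-cage mice). Microglial markers were negative in 9 of 9 tested, none called (193 to 205 CPM after defeat, 210 to 213 in home-cage mice), with P2ry12 at 0 in all libraries. Markers of meningeal fibroblasts were positive in 7 of 7 tested, 1 called (26.3 to 31.5 CPM after defeat, 18.6 to 29.3 without it), with Igf2 at 0 in all libraries, and those of choroid plexus and ependyma in 3 of 5, none called (5.76 to 7.18 against 5.42 to 6.10). Their part in the values of the chaperone genes was not tested.

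**Figure D3:**
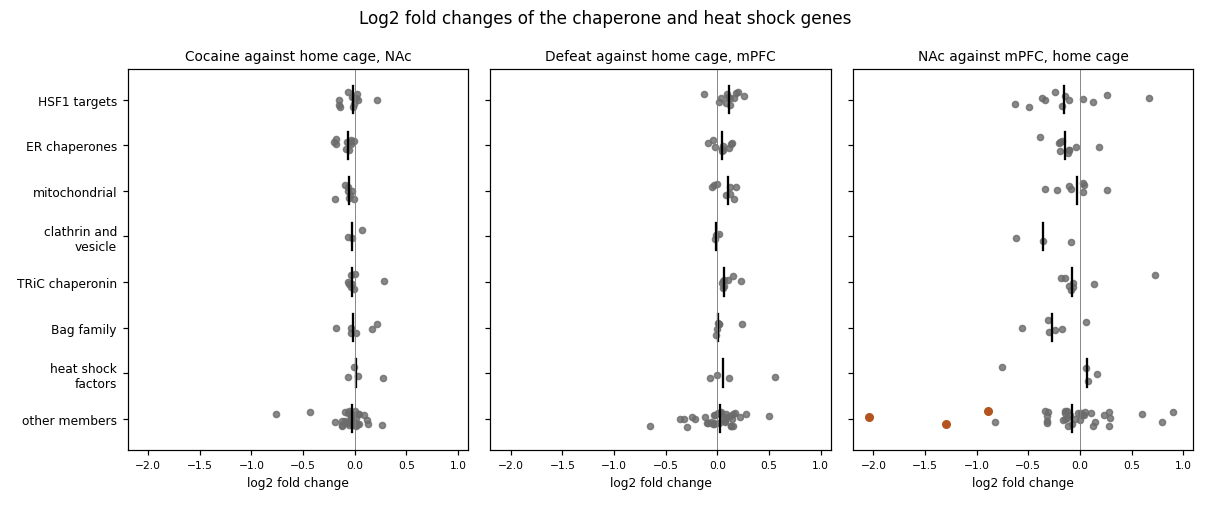
Log2 fold changes of the 83 genes by group in 3 comparisons, as points, with the group median as a vertical line; Hspd1, Hspe1 and Bag3 are drawn in 2 groups. Points in orange passed edgeR's test at an adjusted p under 0.05, which were Hspb7, Dnajc21 and Hspb8 in the comparison of regions.

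The difference between the social defeat response in mPFC and the cocaine response in NAc was tested as a contrast of all 8 libraries. Again 0 of 83 were called (0.0% of 18783 genes), 4 had an unadjusted p under 0.05, all with the larger response after defeat (0.831% of genes in that direction), and DESeq2 called 0 of 83 (0.0081% of genes). By either sign 2.21% of genes had such a p. These shares are those of the main fit and were not worked out for the other fits, whose counts have no background. The count of 4 was 0 in DESeq2, 2 with RLE factors, 2 with no filter and 9 with the replicate block. It was lower without either NAc cocaine library, either defeat library or either mPFC home-cage library, and not lower without either NAc home-cage library. Without defeat replicate 2 the sign was the opposite one. The 4 were Dnaja2 (log2 difference 0.23), Dnajc21 (0.26), Dnajb11 (0.23) and Dnajc9 (0.27), a histone co-chaperone in human cells, each at an edgeR adjusted p of 1. The difference was above 0 for 63 of 83 members (background 50.1%), with a median of 0.09 against 0.00 over all genes (0.053 without defeat replicate 1). Treatment and region differ together in this contrast and cannot be told apart.

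The third comparison asked how chaperone RNA differs between the regions in home-cage mice. Called differences were few: 3 of 83 (12.4% of 18300 genes), all lower in NAc (5.35% of genes) and none higher (7.01%). Dnajc21, a J-domain protein whose human counterpart takes part in maturation of the large ribosomal subunit (chr15:10446756-10470516, minus strand), was at 13.4 and 13.4 CPM in NAc and at 32.8 and 32.7 in mPFC. Its log2 fold change was -1.30 (SE 0.0911, edgeR adjusted p = 0.00371), which is 2.46-fold lower in NAc. Hspb7 (chr4:141420779-141425311, plus strand) had 17 and 17 counts in NAc and 57 and 53 in mPFC, or 0.0960 and 0.123 CPM against 0.420 and 0.477. It was 4.11-fold lower in NAc (log2 fold change -2.04, SE 0.310, edgeR adjusted p = 0.0190). Hspb8, the small heat shock protein that works with Bag3 (chr5:116408491-116422864, minus strand), was at 3.32 and 2.56 CPM in NAc and at 4.89 and 6.0 in mPFC, 1.86-fold lower in NAc (-0.89, SE 0.196, edgeR adjusted p = 0.0453). In all 3 genes the regions did not overlap.

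The libraries of exposed mice, which this comparison did not use, gave the same order. Dnajc21 was at 13.1 and 12.9 CPM in NAc after cocaine and at 36.5 and 40.3 in mPFC after defeat, 2.92-fold lower in NAc (log2 fold change -1.55, edgeR adjusted p = 0.000589). Hspb7 was at 0.0431 and 0.0840 CPM against 0.449 and 0.287 (-2.50, edgeR adjusted p = 0.0109), and Hspb8 at 3.43 and 2.97 against 5.22 and 5.05 (-0.67, edgeR adjusted p = 0.0112). Treatments differ between those groups as well as regions. None of the 3 genes shares exons with a gene on the other strand in GENCODE M21. Of the nearest neighbours of Dnajc21, Brix1 had a log2 fold change of -0.07 (edgeR adjusted p = 0.751) and Rad1 one of -0.48 (edgeR adjusted p = 0.108).

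**Figure D4:**
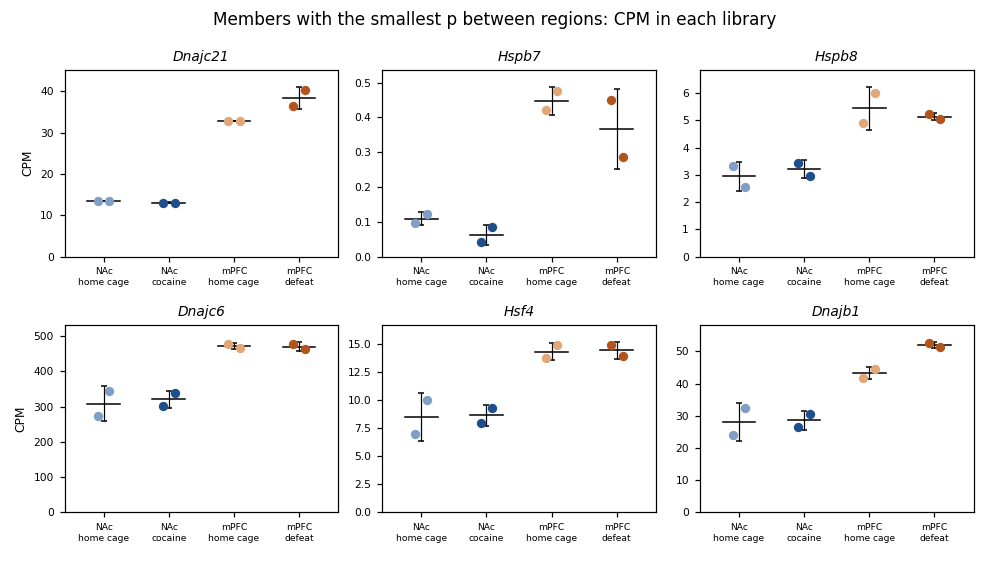
CPM of Dnajc21, Hspb7, Hspb8, Dnajc6, Hsf4 and Dnajb1 in each of the 8 libraries (points), with group mean (line) and SD (bar, n = 2). All 4 NAc values lie below all 4 mPFC values for these 6 genes.

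Several neuronal and regulatory members came close without being called in the main edgeR fit, and were called under some other settings. Dnajc6 was at 272 and 343 CPM in NAc and 477 and 466 in mPFC (log2 fold change -0.62, SE 0.150, edgeR adjusted p = 0.0565). Hsf4, known from the mouse lens, was at 7.04 and 10.1 CPM against 13.8 and 14.9 (-0.76, SE 0.192, edgeR adjusted p = 0.0636), and Dnajb1 at 24 and 32.3 against 41.9 and 44.5 (-0.63, SE 0.161, edgeR adjusted p = 0.0651). Dnajc5 was at 205 and 223 CPM against 279 and 268 (-0.36, SE 0.111, edgeR adjusted p = 0.0953). For these 4 genes too, every NAc library was below every mPFC library. DESeq2, the fit of all 8 libraries and the libraries of exposed mice called all 4. With no filter edgeR called Dnajc6, Hsf4 and Dnajb1, and with RLE factors it called none of the 4. The DESeq2 adjusted p was 0.00257 for Dnajc6, 0.00624 for Hsf4, 0.0114 for Dnajb1 and 0.0361 for Dnajc5. In the other direction Dnajb8, Dnajb13 and Hspb9 had log2 fold changes of 0.60, 0.80 and 0.90, at edgeR adjusted p of 0.120, 0.122 and 0.142. Exons of Dnajb8 share 525 bases with 1700031F10Rik and those of Dnajb13 share 305 with Ucp2, each on the opposite strand. The strand setting of the counting is not given in the sources used here, so reads there cannot be told apart.

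Over all 8 libraries, all 4 NAc values were below all 4 mPFC values for 36 of 83 members (43.4%; 23.2% of all genes) and above them for 5 (6.02%; 24.3%): Cct6b, Dnajb13, Dnajb8, Dnajc17 and Hspb11. In home-cage mice the median log2 fold change of the members was -0.11 against 0.01 for all genes, with 28 of 83 above 0 (background 50.9%). An unadjusted p under 0.05 was found for 21 of 83 (31.5% of genes). The home-cage groups did not overlap for 40 members lower in NAc (background 30.6%) and 14 higher (background 32.8%). The Bag family had 5 of 6 below 0 (median -0.27), the ER chaperones 9 of 10 (median -0.14) and the Hsf1 targets 8 of 12 (median -0.16), while the mitochondrial chaperones were even at 4 and 4.

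The count of 3 depended on the tool, the filter and the libraries used. DESeq2 called 8 (15.2% of genes), edgeR without a filter 6 (13.4%), a fit of all 8 libraries 15 (24.8%) and the libraries of exposed mice 36 (36.3%), and the 3 genes were among them each time. Without NAc home-cage replicate 1 edgeR called 15 (29.6% of genes) and without NAc home-cage replicate 2 it called 31 (42.9%), with the 3 genes again among them. Without mPFC home-cage replicate 1 or without replicate 2 it called 0, and 0 genes of all tested. Of the 43 other pathway genes, 2 were called higher in NAc (7.01% of all genes) and 0 lower (5.35%). They were Fkbp5, an Hsp90 co-chaperone of steroid receptors (log2 fold change 0.54, edgeR adjusted p = 0.0269), and Sil1, a nucleotide exchange factor of Hspa5 (0.74, edgeR adjusted p = 0.0336). Most of the list went the other way, with 32 of 43 log2 fold changes below 0 and a median of -0.11.

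Cell markers differed between the regions too. Of the striatal markers 11 of 14 were called higher in NAc, and of the cortical ones 5 of 12 lower. Astrocyte markers were called lower for 4 of 10, with sums of 2618 to 2805 CPM in NAc home-cage libraries and 4021 to 4118 in mPFC. Endothelial and mural markers were called lower for 2 of 12, with sums of 221 to 234 CPM against 257 to 272. Choroid plexus and ependymal markers were positive in 5 of 5 tested, 1 called (11.4 to 27.8 CPM in NAc, 5.42 to 6.10 in mPFC). The ciliary genes Dnajb13 and Hspb11 were higher in NAc without being called in the main fit, and so were Cct6b, Dnajb8 and Dnajc17. Some Dnajb13 reads may belong to Ucp2. A link of these genes to the ependymal markers was not tested. Oligodendrocyte markers were positive in 12 of 12 (1440 to 2544 against 1329 to 1603), microglial markers negative in 9 of 9 tested (172 to 194 against 210 to 213) and blood markers negative in 4 of 4 tested, none of them called. Their part in the lower chaperone levels was not tested. Each region has a table of its own, so region and table cannot be told apart.

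Within NAc, 7 of the 83 members, with no limit on level, differed between the libraries numbered 1 and 2 by more than 1.2-fold in the same direction in both groups. Hspa1b in replicate 1 was at 0.639 of replicate 2 after cocaine and at 0.423 in home-cage mice, and Hspa1a at 0.769 and 0.805. Hspa2, an Hsp70 best known from testis, was at 0.735 and 0.646, and Bag2, which inhibits the ubiquitin ligase partner of Hsp70, at 0.778 and 0.652. Hspb7, at 6 to 17 counts, was at 0.513 and 0.779. Bag5 was higher in replicate 1, at 1.32 and 1.22 times replicate 2, and so was Hspb9, at 1.36 and 1.47 times. Of 14071 genes with at least 1 CPM, 1089 were higher in replicate 1 by that rule and 1209 lower. Of the 83 members 2 were higher and 5 lower. These sets are unlike, since Hspa1a, Hspb7 and Hspb9 averaged under 1 CPM.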

How the data were processed

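Per the submitters' processing notes, reads were aligned to mm10 with STAR 2.7.1a and counted with featureCounts; the sources used here do not state its version, annotation or options. The authors deposited whole-number counts for each symbol, with NAc and mPFC in separate tables. Groups came from the titles and treatment labels; mPFC replicates are numbered in deposited order. The members, gene lists and tests were chosen with earlier results of these data known. Counts were tested in R 4.3.3 with edgeR 4.0.16 (filterByExpr, TMM, glmQLFit, glmQLFTest; default settings) over all genes, with Benjamini-Hochberg adjustment and a threshold of 0.05; SE was taken as the size of the log2 fold change over the root of F. An exact permutation test of 2 against 2 cannot go below a two-sided p of 0.333. Alternatives were DESeq2 1.42.0, RLE factors, no filter, a fit of all 8 libraries, limma 3.58.1 (voom), a replicate block, leaving out each library, and, added after seeing the data, the exposed libraries.

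On simulated counts for the cocaine comparison (18418 genes) the test found 13.4% of genes changed 1.5-fold, 56.7% of those changed 2-fold and 97.0% of those changed 4-fold. For social defeat (18027 genes) it recovered 76.1%, 88.1% and 100% of these. For the regions (18300 genes) it recovered 14.9%, 68.7% and 98.5%, and for the difference of responses (18783 genes) 2.99%, 22.4% and 93.9%. False calls were 7 of 118 calls for cocaine and 10 of 186 for social defeat. They were 5 of 126 for the regions and 5 of 84 for the difference of responses. These rates pool all changed genes, and the rate at the spread of any single member was not tested. The simulation gave all genes of a comparison a common dispersion and drew the libraries independently. It left out the shared deviation of NAc libraries with the same number, so the rates in these data can differ. Set to be named were the Hsf1 targets, the factors, Hspa5, Hsp90b1, Dnajb9, Dnajc5, Dnajc6 and members called. The set also held the 3 with the smallest p per direction and comparison, and the 5 highest and 5 lowest by CPM. Not each of them is described in every comparison, and Dnajb9, Hsph1 and Hspb1 appear with values only in the figures. Others were chosen after their values were seen. Gene positions and lengths came from GENCODE M21 (GRCm38), which matched all 83 symbols. Plots used python 3.11.15, pandas 2.3.3, numpy 2.4.6 and matplotlib 3.10.9.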

Additional observations from a re-analysis of the deposited data

Results flagged for a closer look

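For 7 members both cocaine libraries lay below both NAc home-cage libraries and both social defeat libraries lay above both mPFC home-cage libraries. Over the 17722 genes tested in both comparisons 2.82% showed this pattern; the opposite one was shown by 0 members and 1.79% of genes. The difference of the responses was tested for each in edgeR's fit of all 8 libraries, and none passed over all genes (adjusted p = 1 for each). Dnaja2, a cytosolic J-domain protein, was at 54.7 and 53.1 CPM after cocaine against 57.2 and 57.1, and at 67.3 and 64.5 after defeat against 59.6 and 58.0 (log2 difference 0.23). Dnajc9 gave 0.27, with 8.50 and 9.04 CPM after cocaine against 9.47 and 9.70, and 9.01 and 9.13 after defeat against 7.97 and 8.27. Dnajc21 gave a log2 difference of 0.26, Dnajb11 0.23 and Dnajc3 0.14. Dnaja4 gave 0.11 and Hsp90b1 0.10, with unadjusted edgeR p of 0.283 and 0.331.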

How the results depend on the processing

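No member was called after cocaine or in the difference of responses under any alternative run. With the replicate block, 0 members were called in NAc (0.206% of all genes called) and 0 in the difference of responses (0.016% of all genes called). An unadjusted edgeR p under 0.05 was found for 3 members in NAc, all lower. In the difference of responses it was found for 9, 7 higher and 2 lower. The share of all genes at that unadjusted p was not worked out with the replicate block, so these counts have no background. The NAc libraries with the same number deviated together (correlation of the number differences 0.783 over 76 members and 0.809 over 14071 genes), but the labels do not say what the numbers share. After social defeat DESeq2 called 1 member, edgeR with no filter 1, and fits leaving out 1 library 0 to 2. Between regions DESeq2 called 8 members, no filter 6, the fit of all 8 libraries 15, the libraries of exposed mice 36 (32 lower in NAc), and fits leaving out 1 library 0 to 31. In the libraries of exposed mice 6 of 35 named members changed sign: Bag3 from -0.18 to 0.023, Hsf2 from 0.056 to -0.059, Hsf3 from 0.082 to -0.20, Hspa1a from 0.13 to -0.14, Hspb9 from 0.90 to -0.028, Hspd1 from 0.028 to -0.20. Dnajc21, Hspb7 and Hspb8 lost their calls without either mPFC home-cage library (edgeR adjusted p 0.112 to 0.339), where that group is a lone library assumed to vary like the other; the cause was not tested. Intervals cover the spread between 2 libraries a group, and Hspb7 rests on 6 to 59 counts a library.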
